A study of Mus musculus with 4 samples.

Results

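Interleukin 6 family cytokines, their receptors and their SOCS inhibitors were measured in muscle stem cells of young and aged mice. The 10 genes were the cytokines Il6, Lif and Osm, the receptors Il6ra, Lifr, Osmr and Il6st, and the inhibitors Socs1, Socs2 and Socs3. Their probe sets were those that the array's annotation assigns to exactly 1 of these genes, which gave 26 probe sets of 34945 with a single gene symbol and 45101 in all. All 26 were tested, since no filter on low values could be applied. The cells were satellite cells, the stem cells that lie along muscle fibres, sorted for the surface proteoglycan syndecan-4 from hindlimb muscle of C57BL/6J mice. The young group was aged 3 to 6 months and the aged group 20 to 25 months, with 2 pools of mice per age and 1 Affymetrix array per pool, 4 arrays in all. Every array holds pooled animals (4 to 8 per pool in the series text, 6 to 8 in the sample text), so the spread between single mice was not measured. The labels name no transgene, deletion or treatment and do not give the sex of the mice.

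Cytokines of this family share the receptor chain gp130, the product of Il6st. Interleukin 6 binds its own receptor chain, encoded by Il6ra, before it engages gp130, while leukaemia inhibitory factor (Lif) uses gp130 paired with the Lifr product and mouse oncostatin M (Osm) mainly gp130 paired with the Osmr product. The receptors activate JAK kinases and the transcription factor STAT3. SOCS proteins are induced by the pathway and inhibit it, SOCS3 by binding gp130 and SOCS1 by binding the kinases, while SOCS2 is best known as an inhibitor of growth hormone signalling. In skeletal muscle, interleukin 6 and leukaemia inhibitory factor are known to act on proliferating myoblasts, and oncostatin M has been described as a signal for quiescence of muscle stem cells.

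The deposited values, read here as log2 although no source states the base, give each probe set as a distance from its own median on the 4 arrays. They carry no level, so no gene can be called abundant or absent and no gene's level can be set against another's. Xist, the RNA of the inactive X chromosome, measured -3.48 and -2.67 in young against 3.21 and 2.97 in aged pools. Its log2 difference, aged minus young, was 6.16 ± 0.44 (unadjusted p = 1.4e-05, adjusted p = 0.0998 with limma). The Y-linked genes Kdm5d (0.013 ± 0.49), Uty (0.52 ± 0.47) and Eif2s3y (-0.087 ± 0.44) had smaller differences, and their ages overlapped. Whether the pools of the 2 ages differed in sex was not tested. A difference in sex could not be told apart from one in age for any gene here. Satellite cell markers were higher in aged cells in 7 of 10 cases, where 53.8% of all genes were. Mature muscle fibre markers were lower in 12 of 12, where 46.2% of all genes were. Because each array is a bulk sample, fewer cells of a type and less RNA per cell cannot be told apart.

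The 10 genes lie on 7 chromosomes of the GRCm38.p6 assembly (RefSeq annotation), and 4 of them form neighbouring pairs. Osm (chr11:4236785-4241026) and Lif (chr11:4257568-4272514) are 16.5 kb apart with 0 protein-coding genes between them. Osmr (chr15:6813568-6874968) and Lifr (chr15:7090610-7197489) are 215.6 kb apart, again with 0 protein-coding genes between them. Il6 lies at chr5:30013114-30019975, Il6ra at chr3:89869324-89913196 and Il6st at chr13:112464070-112506860. Socs1 is at chr16:10783808-10785536, Socs2 at chr10:95383903-95417321 and Socs3 at chr11:117966079-117970336.

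RefSeq promoter windows of 300 bases (250 before to 50 after a transcript start, GRCm38.p6) were found for 8 of the 10 genes. Of these, 4 are printed 5′ to 3′ on the gene's strand, with motif matches in capitals: Il6, Osmr and Il6st, which carry the largest positive differences between ages among the windows found, and Socs3, the inhibitor known as a STAT3 target. They lie at chr5:30012864-30013163 (plus strand), chr15:6874264-6874563 (minus strand), chr13:112463820-112464119 (plus strand) and chr11:117969317-117969616 (minus strand), in that order. The Osmr and Socs3 windows lie wholly within the gene spans given above. Their transcript starts are therefore inside those spans and not at the outer end.
Il6: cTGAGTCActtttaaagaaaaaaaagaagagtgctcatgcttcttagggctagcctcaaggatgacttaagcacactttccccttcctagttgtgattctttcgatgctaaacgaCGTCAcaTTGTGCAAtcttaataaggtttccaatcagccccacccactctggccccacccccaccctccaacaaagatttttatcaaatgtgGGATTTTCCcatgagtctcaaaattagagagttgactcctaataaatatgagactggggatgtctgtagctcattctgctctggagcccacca
Osmr: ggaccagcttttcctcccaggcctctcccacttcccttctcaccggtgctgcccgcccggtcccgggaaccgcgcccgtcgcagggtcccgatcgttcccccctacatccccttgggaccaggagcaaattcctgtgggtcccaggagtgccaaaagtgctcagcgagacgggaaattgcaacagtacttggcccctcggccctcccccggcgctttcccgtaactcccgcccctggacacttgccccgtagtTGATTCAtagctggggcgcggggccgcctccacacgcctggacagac
Il6st: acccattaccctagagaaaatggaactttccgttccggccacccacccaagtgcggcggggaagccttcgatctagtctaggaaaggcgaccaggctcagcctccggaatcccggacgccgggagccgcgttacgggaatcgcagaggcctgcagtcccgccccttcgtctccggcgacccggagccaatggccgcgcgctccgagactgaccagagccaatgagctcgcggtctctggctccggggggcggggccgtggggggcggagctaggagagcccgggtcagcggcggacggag
Socs3: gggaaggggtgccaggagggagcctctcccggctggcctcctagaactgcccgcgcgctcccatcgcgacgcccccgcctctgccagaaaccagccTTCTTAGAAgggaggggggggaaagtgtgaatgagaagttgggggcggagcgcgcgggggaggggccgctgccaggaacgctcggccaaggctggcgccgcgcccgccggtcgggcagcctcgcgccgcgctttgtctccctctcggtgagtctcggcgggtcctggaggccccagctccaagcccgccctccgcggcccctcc
The motifs searched, on both strands, were those of STAT factors (TTCNNNGAA), AP-1 (TGANTCA), C/EBP (TTGNNCAA) and NF-kB (GGANTTTCC) and the short form of the cyclic AMP response element (TGACG). The Il6 window held an AP-1 match at -249, the short response element at -135, a C/EBP match at -128 and an NF-kB match (GGATTTTCC) at -43 relative to the start. The Osmr window held an AP-1 match (TGATTCA) at position 4 after the start, the Socs3 window a STAT match (TTCTTAGAA) at -154, and the Il6st window none of the 5 motifs. No matches overlapped. Over all 32817 promoter windows of this length, 8.29% held the STAT motif, 7.81% AP-1, 6.40% C/EBP, 1.26% NF-kB and 20.8% the short response element. These matches describe letters only, and the arrays did not measure binding.

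The single probe set of oncostatin M, 2 of 3 of its receptor and 1 of 4 of the shared chain gp130 had an unadjusted p under 0.05 in limma with the aged pools higher, while 1 of 2 of the interleukin 6 receptor and 1 of 3 of the leukaemia inhibitory factor receptor did so with the aged pools lower. The largest difference was that of Osmr, 12.5-fold on its strongest probe set, followed on the positive side by Il6, Il6st and Osm. None of the 26 probe sets passed an adjusted p of 0.05 in limma, nor did any of the 34945 tested (background 0%). At an unadjusted p under 0.05 there were 6 of 26, 4 higher and 2 lower in aged cells, against a background of 7.94% of all probe sets tested (2.56% higher and 5.37% lower). The 6 belong to Osm, Osmr (2 probe sets), Il6st, Il6ra and Lifr. By role they were 1 of 4 probe sets of the cytokines, 5 of 12 of the receptors and 0 of 10 of the SOCS inhibitors.

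**Figure D1:**
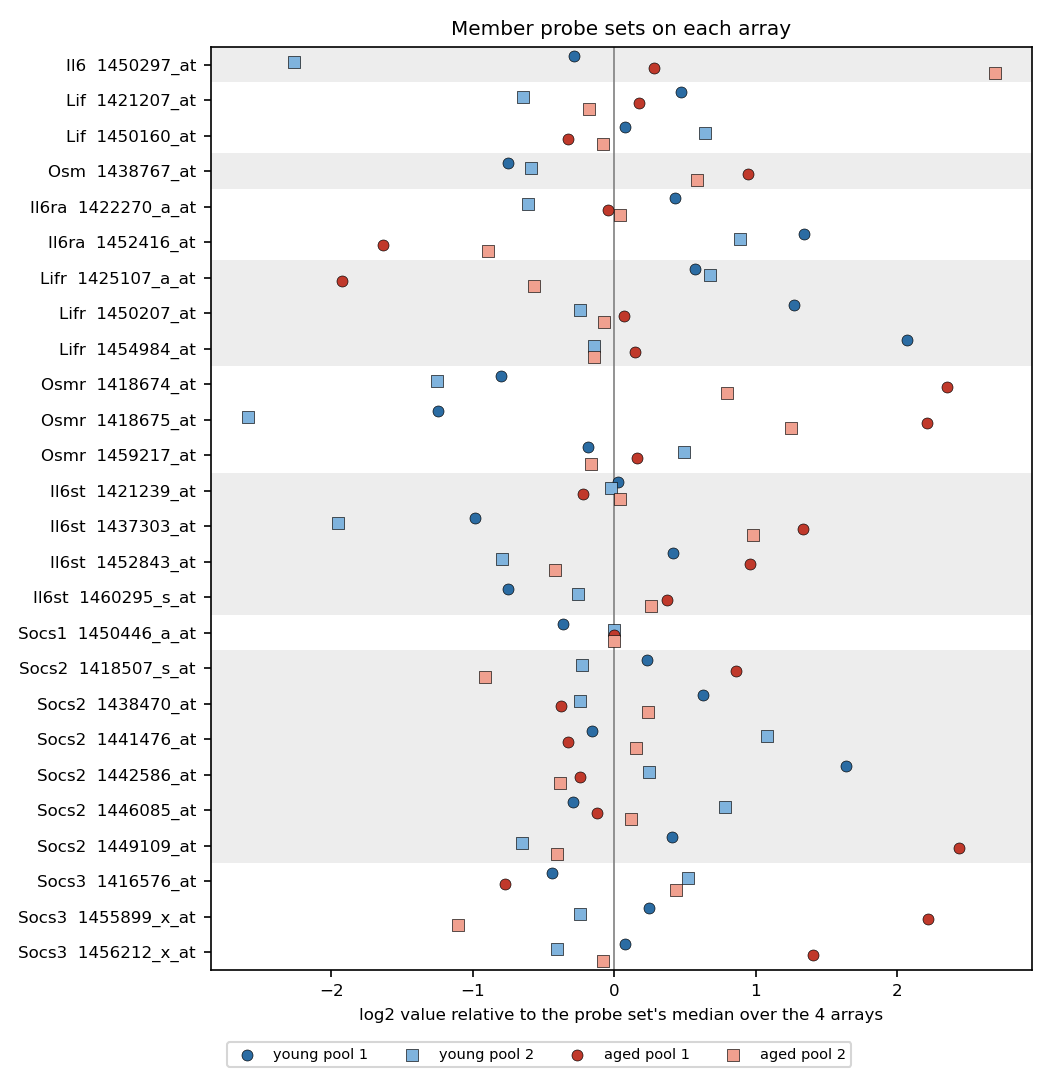
Log2 value relative to the probe set's median over the 4 arrays (x axis) for each of the 26 probe sets (y axis), with young pools in blue, aged pools in red, pools numbered 1 as circles and pools numbered 2 as squares. The aged pools lie to the right of both young pools for Il6, Osm, 2 probe sets of Osmr and 2 of Il6st, and to the left for 1 probe set each of Lif, Il6ra, Lifr and Socs2.

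Among the cytokines, Osm differed most evenly between ages. Its single probe set, 1438767_at, annotated without a source sequence, read -0.75 and -0.59 in the young pools and 0.95 and 0.59 in the aged pools. Both aged pools were higher than both young pools, and pools of one age lay within 0.36 of each other. The log2 difference was 1.44 ± 0.41 (SE, n = 2 pools per age; 2.71-fold, 95% interval 0.35 to 2.52, unadjusted p = 0.0197 and adjusted p = 0.478 with limma). Without 1 pool it ran from 1.26 to 1.62.

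Il6, the cytokine that names the family, had a larger difference and a much larger spread. Its probe set 1450297_at read -0.28 and -2.26 in the young pools and 0.28 and 2.69 in the aged pools. The ages did not overlap, but the pools numbered 1 differed by 0.57 and the pools numbered 2 by 4.95. The log2 difference was 2.76 ± 1.09 (6.77-fold, 95% interval -0.11 to 5.63, limma unadjusted p = 0.0561, adjusted p = 0.654). It was 1.56 without aged pool 2 and 3.96 without aged pool 1. In the fit over 18193 genes the same values gave an unadjusted p of 0.0356 (adjusted p = 0.485), since the variance shared between features is estimated anew there.

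Lif, the genomic neighbour of Osm, had no probe set whose 95% interval left out 0. Probe set 1450160_at read 0.079 and 0.64 in young and -0.33 and -0.079 in aged pools, a difference of -0.56 ± 0.44 (95% interval -1.72 to 0.59). The aged pools were lower than the young pools there by a small margin. Probe set 1421207_at read 0.47 and -0.65 in young and 0.18 and -0.18 in aged pools, so that the young pools enclosed the aged ones, and its difference was 0.089 ± 0.55 (95% interval -1.35 to 1.53).

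The oncostatin M receptor chain had the largest difference of the 26 probe sets. Osmr probe set 1418675_at read -1.25 and -2.59 in young pools and 2.21 and 1.25 in aged pools. All aged values were above all young values, by at least 2.49 on the log2 scale. The difference was 3.65 ± 0.67 (12.5-fold, 95% interval 1.89 to 5.40, limma unadjusted p = 0.0034, adjusted p = 0.300). Probe set 1418674_at, annotated from an mRNA sequence like the first, read -0.80 and -1.25 in young and 2.35 and 0.80 in aged pools. Its difference was 2.60 ± 0.66 (6.07-fold, 95% interval 0.87 to 4.33, unadjusted p = 0.0124, adjusted p = 0.414), and without 1 pool it ran from 1.82 to 3.38. The third probe set, 1459217_at, annotated from an expressed sequence tag, read -0.18 and 0.49 in young and 0.16 and -0.16 in aged pools. It did not follow the others, with overlapping ages and a difference of -0.15 ± 0.46 (95% interval -1.37 to 1.06).

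Il6st, the chain that Il6, Lif and Osm all signal through, had 4 probe sets that differed widely from each other. Of these, 1452843_at is annotated from a full-length cDNA and the others from expressed sequence tags. Probe set 1437303_at read -0.98 and -1.95 in young and 1.33 and 0.98 in aged pools. The aged pools were both higher, and the difference was 2.63 ± 0.52 (6.19-fold, 95% interval 1.27 to 3.99, limma unadjusted p = 0.0046, adjusted p = 0.315). Probe set 1460295_s_at pointed the same way, with -0.75 and -0.26 in young and 0.37 and 0.26 in aged pools, and a difference of 0.82 ± 0.43 (95% interval -0.30 to 1.94). The suffix _s_at marks a probe set whose probes match more than a single transcript. Probe set 1452843_at read 0.42 and -0.80 in young and 0.96 and -0.42 in aged pools, with overlapping ages and a difference of 0.46 ± 0.72. Probe set 1421239_at lay between -0.22 and 0.042 on all arrays, with a difference of -0.089 ± 0.40. The mean over the 4 probe sets differed by 0.96 ± 0.40 (1.94-fold, unadjusted p = 0.0553, adjusted p = 0.576).

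Il6ra, which binds interleukin 6 itself, was lower in aged cells on 1 of its 2 probe sets. That probe set, 1452416_at, is annotated from an mRNA and the other from a RefSeq mRNA. Probe set 1452416_at read 1.34 and 0.89 in young and -1.64 and -0.89 in aged pools. The aged pools were lower by at least 1.78, and the difference was -2.38 ± 0.49 (5.21-fold lower, 95% interval -3.65 to -1.11, limma unadjusted p = 0.0053, adjusted p = 0.321). Probe set 1422270_a_at, whose suffix marks transcripts of a single gene, read 0.43 and -0.61 in young and -0.043 and 0.043 in aged pools. There the aged pools lay between the young ones, with a difference of 0.089 ± 0.52 (95% interval -1.28 to 1.45).

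Lifr had negative differences on all 3 of its probe sets, but 2 of them rested on young pool 1. Probe set 1425107_a_at is annotated from an mRNA, 1454984_at from an expressed sequence tag and 1450207_at from a RefSeq mRNA. Probe set 1425107_a_at read 0.57 and 0.68 in young and -1.93 and -0.57 in aged pools, both aged pools being lower. Its difference was -1.87 ± 0.59 (3.66-fold lower, 95% interval -3.43 to -0.31, limma unadjusted p = 0.0278, adjusted p = 0.536), and it was -2.55 without aged pool 2 and -1.19 without aged pool 1. Probe set 1454984_at read 2.07 and -0.15 in young and 0.14 and -0.14 in aged pools, a difference of -0.96 ± 0.83. Probe set 1450207_at read 1.27 and -0.24 in young and 0.071 and -0.071 in aged pools, a difference of -0.51 ± 0.63. In both, young pool 1 was high and the other 3 arrays lay together, and without that pool the differences were 0.15 and 0.24.

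**Figure D2:**
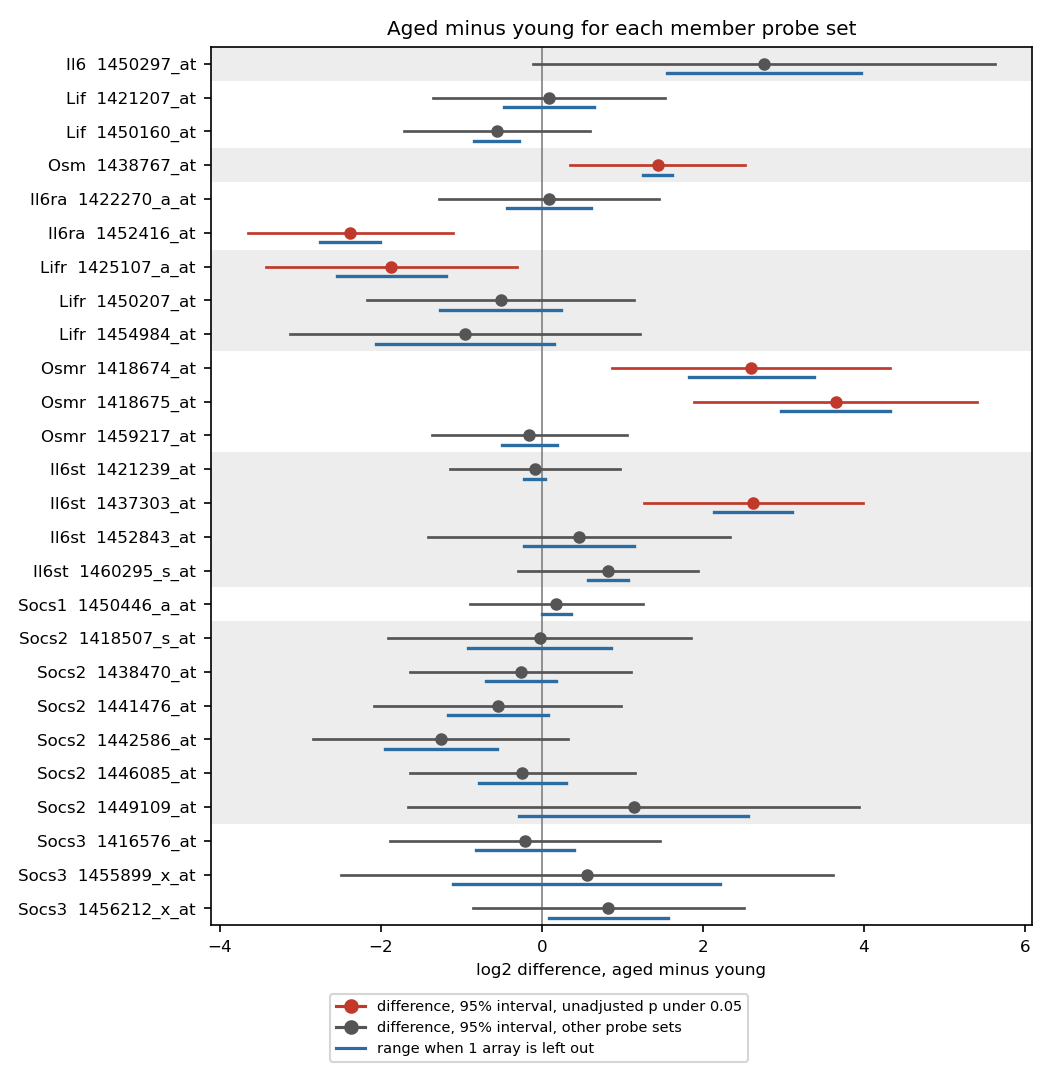
Log2 difference, aged minus young (x axis), for each probe set (y axis), with the point and its 95% interval from limma in red where the unadjusted p was under 0.05 and in grey otherwise, and the range obtained by leaving out 1 array in blue. The intervals of 2 probe sets of Osmr and 1 each of Osm and Il6st lie above 0, those of 1 probe set each of Il6ra and Lifr lie below 0, and the other 20 include 0.

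Of the SOCS inhibitors, 0 of 10 probe sets had an unadjusted p under 0.05 in limma with all 4 arrays, where 7.94% of all probe sets did. This did not hold without young pool 2 or without aged pool 2. Among the 26, 2 SOCS probe sets had the widest gaps between pools of one age. Socs3 probe set 1416576_at read -0.44 and 0.52 in young and -0.77 and 0.44 in aged pools, a difference of -0.21 ± 0.64 (95% interval -1.89 to 1.47). Probe set 1455899_x_at read 0.25 and -0.25 in young and 2.22 and -1.10 in aged pools, a difference of 0.56 ± 1.17. Probe set 1456212_x_at read 0.077 and -0.40 in young and 1.40 and -0.077 in aged pools, a difference of 0.83 ± 0.64. On the 2 last probe sets aged pool 1 alone was high, and the suffix _x_at marks probes that can match other sequences.

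Socs2 had 6 probe sets, the most of any member, and 1 of them separated the ages, where 34.6% of all probe sets did. Probe set 1442586_at read 1.64 and 0.24 in young and -0.24 and -0.38 in aged pools, a difference of -1.26 ± 0.60 (95% interval -2.84 to 0.33, unadjusted p = 0.0962 and adjusted p = 0.748 with limma). It was -0.56 without young pool 1 and -1.96 without young pool 2, so its size depended on young pool 1. Probe set 1449109_at, annotated from a RefSeq mRNA, read 0.41 and -0.65 in young and 2.44 and -0.41 in aged pools, again with only aged pool 1 high, and differed by 1.14 ± 1.07. Probe set 1418507_s_at, also from a RefSeq mRNA, read 0.23 and -0.23 in young and 0.86 and -0.92 in aged pools, a difference of -0.027 ± 0.72. The other 3 differed by -0.55 to -0.24 with overlapping ages. Socs1, with 1 probe set, read -0.36 in young pool 1 and exactly 0 on the other 3 arrays. Values of exactly 0, as deposited, on at least 3 arrays occur in 0.253% of all probe sets, and the difference of 0.18 ± 0.41 (95% interval -0.89 to 1.26) rests on that single array.

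The ages did not overlap in 10 of the 26 probe sets, 6 with the aged pools above and 4 with them below, against 34.6% of all probe sets (18.4% above and 16.3% below). The difference between ages was larger than both gaps between pools of the same age in 9 of 26, where the background is 23.0%. These 9 were 3 of 4 probe sets of the cytokines, 6 of 12 of the receptors and 0 of 10 of the SOCS inhibitors. The median difference over the 26 probe sets was 0.031, next to 0.036 over all probe sets tested, with 13 positive and 13 negative (backgrounds 52.6% and 47.2%).

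**Figure D3:**
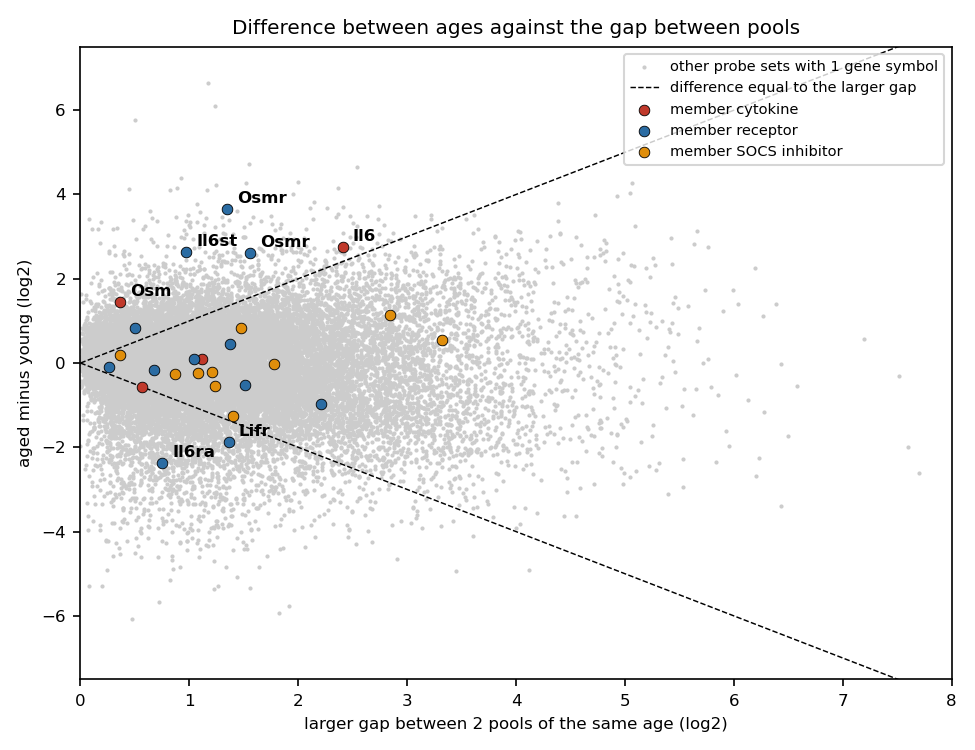
Log2 difference between ages (y axis) against the larger of the 2 gaps between pools of the same age (x axis, log2), with members coloured by role, other probe sets in grey, dashed lines where both are equal and names on probe sets with an unadjusted p under 0.06. The named probe sets of Osmr, Il6st, Osm and Il6 lie above the upper line and those of Il6ra and Lifr below the lower one. Of the unnamed ones, Il6st 1460295_s_at lies above the upper line. Lif 1450160_at lies just below the lower line (difference -0.562, gap 0.560). Of the 10 SOCS probe sets, 0 lie outside the lines.

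With the probe sets of each gene averaged, 4 of the 10 genes had an unadjusted p under 0.05 in limma and 0 an adjusted p under 0.05 (backgrounds 9.04% and 0% of 18193 genes). Of the 4, 3 were higher and 1 lower (backgrounds 2.85% and 6.19%). Osmr (2.03 ± 0.47), Il6 (2.76 ± 1.00) and Osm (1.44 ± 0.37) were higher in aged cells and Il6ra (-1.15 ± 0.44) lower. Over the 10 genes, 6 differences were positive and 4 negative, where 53.8% and 46.2% of all genes were. Lifr differed by -1.12 ± 0.51, Lif by -0.24 ± 0.36, Socs1 by 0.18 ± 0.37, Socs2 by -0.20 ± 0.40 and Socs3 by 0.39 ± 0.50. The count was 2 without young pool 1 and 2 without aged pool 2, and Osmr was among the genes counted under each of the 4 omissions. The 5 genes whose 4 values lay closest to those of Osmr, at a root mean square distance of 0.10 to 0.16 (log2), were Ikzf4, Sp100, Cnot6, Gm20083 and Ifit2. With 4 arrays such likeness is common, since 578 of the other 18192 genes had a correlation above 0.95 with Osmr.

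Further ligands and receptors related to the gp130 family split in both directions. Of 7 measured, 4 were higher and 3 lower in aged cells, with a median log2 difference of 0.10 against 0.050 over all genes. At an unadjusted p under 0.05 in limma there were 2 of 7, both higher (backgrounds 2.85% higher and 9.04% in either direction). These were Il31ra (1.29 ± 0.41, adjusted p = 0.418), whose product pairs with the oncostatin M receptor chain to form a cytokine receptor, and Clcf1 (1.09 ± 0.37, adjusted p = 0.449), a ligand of the ciliary neurotrophic factor receptor. The median of the 7 genes was 0.98 without young pool 1 and -0.038 without aged pool 1.

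Genes that carry the signal from the receptors went in both directions. Of 9 measured JAK-STAT genes, 4 were higher and 5 lower, with a median of -0.083 and 0 at an unadjusted p under 0.05 (background 9.04%). Jak1, the kinase most closely tied to gp130, stood at 1.04 ± 0.46 (limma unadjusted p = 0.0703, adjusted p = 0.612), with both aged pools above both young pools, and Stat5a at -0.83 ± 0.59. Of 12 further inhibitors of cytokine signalling, 5 were higher and 7 lower, with a median of -0.22. At an unadjusted p under 0.05 in limma there were 2, both lower (backgrounds 6.19% lower and 9.04% in either direction). These were Socs6 (-2.21 ± 0.44, unadjusted p = 0.0029, adjusted p = 0.196), a SOCS protein outside the 10 members, and Pias2 (-1.46 ± 0.47, unadjusted p = 0.0222, adjusted p = 0.418), a SUMO ligase of the family that inhibits STAT factors. The median of these inhibitors was -0.072 without young pool 1, -0.41 without young pool 2, -0.068 without aged pool 1 and -0.056 with the most variable probe set of each gene.

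STAT3 target genes were higher in aged cells in 16 of 20 cases, where 53.8% of all genes were higher, with a median difference of 0.39. At an unadjusted p under 0.05 in limma there were 3 of 20, all higher (backgrounds 2.85% higher and 9.04% in either direction). These were Myc (2.34 ± 0.66, adjusted p = 0.352 with limma), the growth regulator, Bcl3 (1.04 ± 0.41, adjusted p = 0.539), a partner of NF-kB, and Fgl2 (1.05 ± 0.40, adjusted p = 0.523). The list means were -0.20 and -0.20 in young and 0.30 and 0.15 in aged pools. The median was 0.25 without young pool 1. The STAT3 target genes respond to other signals as well, and STAT3 activity was not measured.

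Markers of other cell types differed between the ages beside the members. Over all genes, 53.8% were higher in aged cells. Lymphocyte markers were higher in aged cells in 8 of 8 cases, with list means of -0.81 and -0.83 in young and 1.25 and 0.55 in aged pools. Pericyte and smooth muscle markers were higher in 7 of 7 cases (-0.50 and -0.79 in young, 1.12 and 0.55 in aged) and fibro-adipogenic progenitor markers in 6 of 8 (-0.43 and -0.30 in young, 0.75 and 0.25 in aged). Schwann cell markers were higher in 4 of 4 cases (-0.30 and -0.48, then 0.78 and 0.16). Markers of satellite cells, the cells that the sort for syndecan-4 was meant to collect, were higher in 7 of 10 cases. Their median difference was 0.21, against 0.050 over all genes. Their list means were -0.33 and -0.30 in young and 0.31 and 0.40 in aged pools. The means of these lists share the direction of Osm, Osmr and Il6st, though some satellite cell and fibro-adipogenic progenitor markers went the other way. Their part in the differences of Osm, Osmr, Il6st and Il6 was not tested.

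Mature fibre markers, lower in all 12 cases, had list means of 1.37 and 1.25 in young and -1.43 and -1.35 in aged pools. Macrophage and monocyte markers were lower in 9 of 10 cases (0.64 and 0.37 in young, -0.79 and -0.47 in aged), neutrophil markers in 5 of 6 (0.17 and 0.81, then -0.46 and -0.23) and endothelial markers in 7 of 8 (0.32 and 0.15, then -0.31 and -0.39). Over all genes, 46.2% were lower. The means of these lists share the direction of Il6ra and Lifr, and their part in those differences was not tested. Mast cell and basophil markers were split, with 3 of 7 higher. Since the values are centred, no marker can be called at or near 0 in any pool.

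Immediate-early genes, which can be induced while cells are isolated, were split. Of 20 measured, 11 were higher and 9 lower, with a median of 0.080. At an unadjusted p under 0.05 in limma there was 1, Ier2, which was lower (-1.21 ± 0.36, adjusted p = 0.380). The backgrounds were 6.19% lower and 9.04% in either direction. The median of the 20 genes was -0.22 without young pool 2. The list means were 0.053 and -0.077 in young and -0.078 and -0.094 in aged pools.

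**Figure D4:**
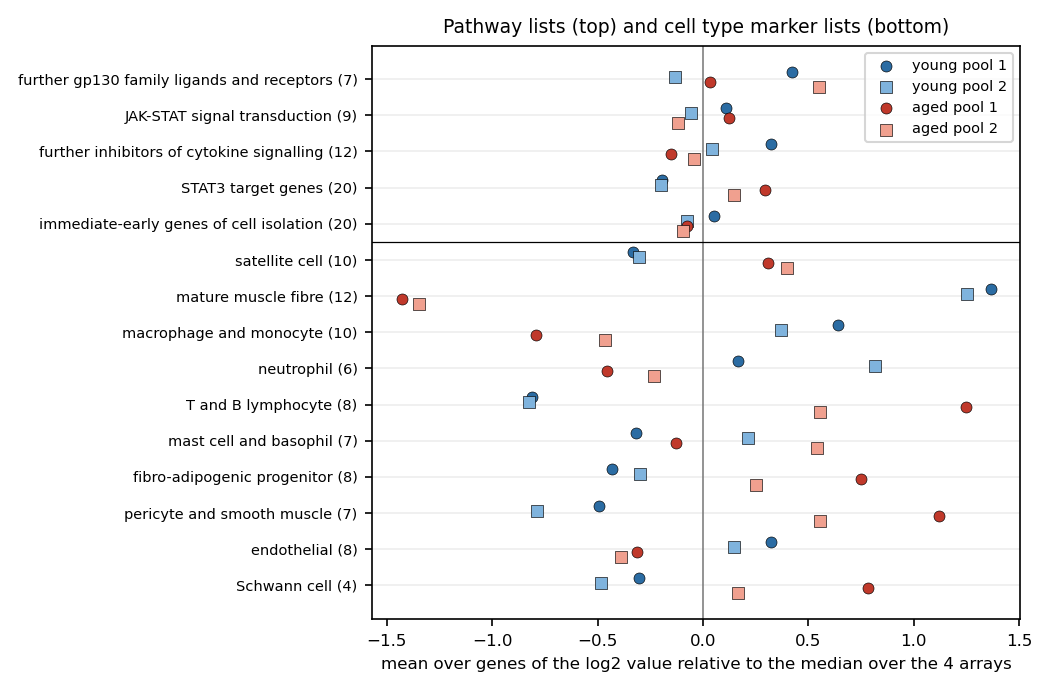
Mean over the genes of each list of the log2 value relative to the median over the 4 arrays (x axis), with the number of measured genes in brackets on the y axis and 1 symbol per array, the 5 pathway lists at the top and the 10 marker lists at the bottom. Fibre markers lie between 1.25 and 1.37 in young and between -1.43 and -1.35 in aged pools, while the means of the immediate-early genes stay between -0.094 and 0.053.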

How the data were processed

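RNA of 4 pools of sorted satellite cells was measured on Affymetrix arrays. Per the labels' protocols, it went through 2 rounds of linear T7 amplification and biotin labelling. Such amplification favours 3′ ends, and where a probe set lies in its transcript was not analysed here. The deposited values, taken as log2, were centred by the authors so that every probe set has a median of 0 (within 5e-07). How background was corrected, probes summarised and arrays normalized is not given in the sources used here. The base and the direction (higher means more RNA) are assumptions. If the base were not 2, every fold would change.

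Symbols were updated by Entrez ID to GRCm38.p6 names (34741 of 34945 probe sets). Probe sets with several symbols (932) or none (9160) and 64 controls were left out, and 0 of those with several symbols named a member. Aged minus young was fitted with lmFit and eBayes of limma 3.58.1 under R 4.3.3, two-sided and without a variance trend, once over 34945 probe sets and once over 18193 gene means, with Benjamini-Hochberg adjustment over each table and a threshold of 0.05. The fits have 2 residual degrees of freedom, to which eBayes added 2.68 prior degrees of freedom for probe sets and 3.56 for genes. The ± is the standard error. The number of arrays limits the precision. The fit was also run on simulated data with independent noise and added shifts. That setting holds no differences in sex or cell mixture, so it does not measure how the fit performs on these pools.

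The members, the gene lists and the tests were chosen with earlier results of these data known. Named genes were all probe sets of the members and, of each other list, up to 4 genes with an unadjusted p under 0.05 in the gene fit, else the 2 with the smallest p. Of marker lists only counts and means are given. The promoter motifs and Xist were chosen after values were seen. Alternatives were quantile normalization, array medians set to 0, a replicate block, robust variances, other sets of probe sets, other summaries per gene and leaving out each array.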

Additional observations from a re-analysis of the deposited data

How the results depend on the processing

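Over all alternatives the count of probe sets with an adjusted p under 0.05 was 0. Of 253 recomputed differences of member probe sets, 231 kept their direction and 22 did not, 21 of them when 1 pool was left out. Of 100 recomputed gene differences 95 kept it. The probe sets of Osm, Il6ra (1452416_at), Lifr (1425107_a_at), Osmr (1418674_at and 1418675_at), Il6st (1437303_at) and Il6 kept their direction under each. Which member probe sets had an unadjusted p under 0.05 in limma depended on the pool left out. Only Il6ra 1452416_at, Osmr 1418675_at and Il6st 1437303_at did under each omission. Without young pool 2, Lifr 1454984_at (-2.07) and Socs2 1442586_at (-1.96) entered. Without aged pool 1, Il6 1450297_at (3.96) entered. Without aged pool 2, Socs2 1449109_at (2.56) and Socs3 1455899_x_at (2.22) entered. The 6 member probe sets at an unadjusted p under 0.05 in limma became 3 to 8 when 1 pool was left out (3 without young pool 1: Il6ra, Osmr and Il6st) and were 5 without probe sets ending in _x_at, _s_at or _a_at. The 4 genes became 2 to 4 when 1 pool was left out, and 5 with quantile normalization or with the most variable probe set. With the replicate number as a block the counts were 6 probe sets and 3 genes (Osm, Osmr, Il6st), and 0 adjusted calls. The same-numbered pools share only a number, and the correlation of their deviations over probe sets was 0.125.

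Where leaving out 1 pool turned a direction, the lowest and highest values ran from -0.47 to 0.65 for Lif 1421207_at, -0.43 to 0.61 for Il6ra 1422270_a_at, -1.27 to 0.24 for Lifr 1450207_at, -2.07 to 0.15 for Lifr 1454984_at, -0.49 to 0.18 for Osmr 1459217_at, -0.22 to 0.042 for Il6st 1421239_at and -0.23 to 1.15 for Il6st 1452843_at. For Socs1 they ran from 0 to 0.36, the 0 being without young pool 1, both for the probe set and the gene. For Socs2 they ran from -0.92 to 0.86 (1418507_s_at, also 0.040 with quantile normalization), -0.69 to 0.17 (1438470_at), -1.17 to 0.071 (1441476_at), -0.78 to 0.29 (1446085_at), -0.28 to 2.56 (1449109_at) and -0.48 to 0.086 (gene). For Socs3 they ran from -0.82 to 0.39 (1416576_at), -1.10 to 2.22 (1455899_x_at) and -0.21 to 0.99 (gene). With the most variable probe set in place of the mean, Lif stood at 0.089 and Socs2 at 1.14, and the JAK-STAT median was -0.24. When 1 pool was left out, list medians ran from -0.038 to 0.98 for further gp130 genes, 0.25 to 0.49 for STAT3 targets and -0.22 to 0.19 for immediate-early genes. The cause of these shifts was not tested. A fit with a variance trend and a filter on dim probe sets were not run, since centred values carry no level.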
